A study of Mus musculus with 200 samples.

Results

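The chemokine genes Ccl2, Ccl7, Ccl12, Ccl3, Ccl4, Cxcl1, Cxcl10, Cxcl16, Cxcl12 and Cx3cl1 were followed in bulk RNA sequencing of mouse brain after closed head injury (CHI). The genes were listed by name and found by exact gene symbol, 10 of the 56941 genes in the deposited tables. The tables hold 200 mice, of which 67 received sham surgery and the others CHI, an impact on the intact skull. Sham surgery per the study's methods shared the anaesthesia and scalp incision without the impact. Brain tissue was collected at 9, 24 or 72 h, and each library came from its own animal. The methods, written for the C57BL/6J mice, state that 1 hemisphere was taken after perfusion with PBS and that surgery was done in the morning, so that the 3 time points fall at different times of day.

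The mice were labelled with 4 strains. C57BL/6J mice numbered 15, 14 and 14 after CHI and 6 at each time point after sham surgery. Mice labelled IL-1R1 gKO numbered 13, 12 and 12 after CHI and 6 at each time point after sham surgery. Mice labelled IL-1R1 eRestore numbered 12, 9 and 12 after CHI and 6, 5 and 6 after sham surgery. Mice labelled IL-1R1 nRestore numbered 6, 8 and 6 after CHI and 4, 5 and 5 after sham surgery. Of all mice 98 were male and 102 female, aged 3.3 to 7.67 months, and the nRestore mice at 72 h were all male. The labels name no other agent and do not spell out the letters g, e and n or the altered part of the IL-1R1 gene, and no promoter or Cre is given for these strains in the sources used here.

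Chemokines are small secreted proteins that draw leukocytes along a gradient by binding G protein-coupled receptors. Ccl2, Ccl7 and Ccl12 are ligands of CCR2, the receptor of inflammatory monocytes, and Ccl3 and Ccl4 are macrophage inflammatory proteins that myeloid cells release. Cxcl1 attracts neutrophils through CXCR2, and Cxcl10, an interferon-inducible gene, attracts T cells through CXCR3. Cxcl16, whose receptor is CXCR6, and Cx3cl1 are made as membrane-bound proteins that can be shed. In brain, Cx3cl1 is made by neurons and its receptor Cx3cr1 is carried by microglia, while Cxcl12 acts through CXCR4 and is produced constitutively, among others by vessels. Many inflammatory chemokine genes are known targets of NF-kappaB, which IL-1 signalling through IL-1R1 activates.

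All 10 genes are protein coding. In GRCm39 with GENCODE vM39, Ccl2 (chr11:81926397-81928279), Ccl7 (chr11:81936532-81938351) and Ccl12 (chr11:81992645-81994466) lie near each other on the plus strand. Ccl3 (chr11:83538670-83540191, minus strand) and Ccl4 (chr11:83553383-83555509, plus strand) lie close together farther along the chromosome. Cxcl16 is at chr11:70344517-70352620 on the minus strand. Cxcl1 (chr5:91039094-91040974, plus strand) and Cxcl10 (chr5:92494497-92496748, minus strand) share chromosome 5. Cxcl12 is at chr6:117144945-117158328 and Cx3cl1 at chr8:95498637-95509055, both on the plus strand. Annotated genes on the opposite strand overlap Ccl3 (Gm53692), Cxcl10 (Art3), Cxcl16 (Med11 and Zmynd15) and Cx3cl1 (1700121C10Rik). Whether strand was used in counting is not given in the sources used here, so reads of these pairs cannot be told apart.

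The 250 bases before the transcription start are shown for 3 genes that rose after CHI and for Cxcl12, which fell. Sequence farther from the start was not searched. The stretches shown are RefSeq sequences of GRCm38.p6, an older build than that of the counts, written 5′ to 3′ on the strand of the gene. Capitals mark matches to the kappaB consensus and to the interferon response element, on either strand. The windows are chr5:92348890-92349139 for Cxcl10 and chr11:83649379-83649628 for Ccl3, both on the minus strand, and chr11:82101595-82101844 for Ccl12 and chr6:117168285-117168534 for Cxcl12, both on the plus strand.
Cxcl10: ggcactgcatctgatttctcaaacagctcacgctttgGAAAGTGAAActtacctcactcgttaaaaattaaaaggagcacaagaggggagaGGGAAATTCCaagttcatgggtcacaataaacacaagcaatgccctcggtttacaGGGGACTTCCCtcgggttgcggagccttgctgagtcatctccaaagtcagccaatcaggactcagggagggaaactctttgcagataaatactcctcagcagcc
Ccl3: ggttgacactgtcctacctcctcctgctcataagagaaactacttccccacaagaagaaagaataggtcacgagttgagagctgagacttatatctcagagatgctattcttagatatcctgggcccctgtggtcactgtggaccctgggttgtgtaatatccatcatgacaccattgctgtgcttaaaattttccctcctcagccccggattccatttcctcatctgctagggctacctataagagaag
Ccl12: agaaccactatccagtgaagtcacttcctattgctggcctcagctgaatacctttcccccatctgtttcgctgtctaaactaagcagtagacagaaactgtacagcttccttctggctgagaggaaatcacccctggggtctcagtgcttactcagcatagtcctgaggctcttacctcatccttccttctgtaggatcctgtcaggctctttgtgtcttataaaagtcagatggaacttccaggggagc
Cxcl12: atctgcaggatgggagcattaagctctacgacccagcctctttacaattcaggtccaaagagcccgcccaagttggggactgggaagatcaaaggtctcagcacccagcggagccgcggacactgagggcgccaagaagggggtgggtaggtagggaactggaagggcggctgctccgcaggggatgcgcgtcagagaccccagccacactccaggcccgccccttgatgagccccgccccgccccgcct
The Cxcl10 window held 3 matches to the kappaB consensus, of which the last 2 overlap, and 1 match to the interferon response element. It also held 1 match to TGANTCA, the AP-1 site, left in lower case. The other 3 windows shown held none of these motifs. RefSeq windows were found for 6 of the 10 genes (also Cxcl1 and Cx3cl1). A kappaB match stood in 2 of the 6 (Cxcl10 and Cxcl1), against 7.25% of 32851 promoter windows of the same length. The interferon response element and TGANTCA each stood in 1 of the 6, against 2.98% and 6.75% of those windows. A match is a description of letters, not a bound site.

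Total estimated counts ranged from 14857985 to 57355676 per mouse (median 20258935.5). No pair of mice within a group had like counts, since the lowest squared difference over genes was 4.92 times the sampling noise in 879 pairs. The labelled tissue was checked by 6 neuron markers, which summed to 4680 to 8092 TPM in the CHI mice and 5331 to 7411 TPM in the sham mice at 9 h, and none was at 0. Il1r1, the gene the strains are labelled for, was present in every mouse at 0.998 to 7.86 TPM. In sham mice it was higher in those labelled gKO than in C57BL/6J mice, by 1.02 (SE 0.22) on the log2 scale at 9 h, 0.86 (0.18) at 24 h and 1.18 (0.18) at 72 h, all with edgeR adjusted p under the threshold. At 9 h the sham mice spanned 0.998 to 1.93 TPM in C57BL/6J and 2.39 to 5.51 TPM in gKO mice. The higher level was not particular to gKO, since sham mice at 9 h spanned 2.07 to 6.45 TPM in eRestore and 3.18 to 3.75 TPM in nRestore. A count per gene does not show which exons are read, so it neither bears out nor contradicts a loss of the receptor protein, and the strains are called by their labels throughout.

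How much the tables can say about each chemokine is set by its counts. A gene was tested where the number of mice with 10 counts or more was no smaller than the smallest group, and otherwise it is called too low to judge. Of the 120 pairings of 10 genes with 12 comparisons of CHI and sham (4 strains at 3 time points), 53 could be judged and 67 were too low. Cxcl12, Cxcl16 and Cx3cl1 could be judged in all 12 comparisons, Cxcl10 in 7, Ccl3 in 5, Ccl12 in 4 and Ccl2 in 1. Ccl4, Ccl7 and Cxcl1 were too low in all 12 when strains were taken singly. Cxcl1 stayed too low with all mice of a time point together: 115 of 200 mice had 0 counts and only 3, all C57BL/6J mice 9 h after CHI, reached 10.

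**Figure D1:**
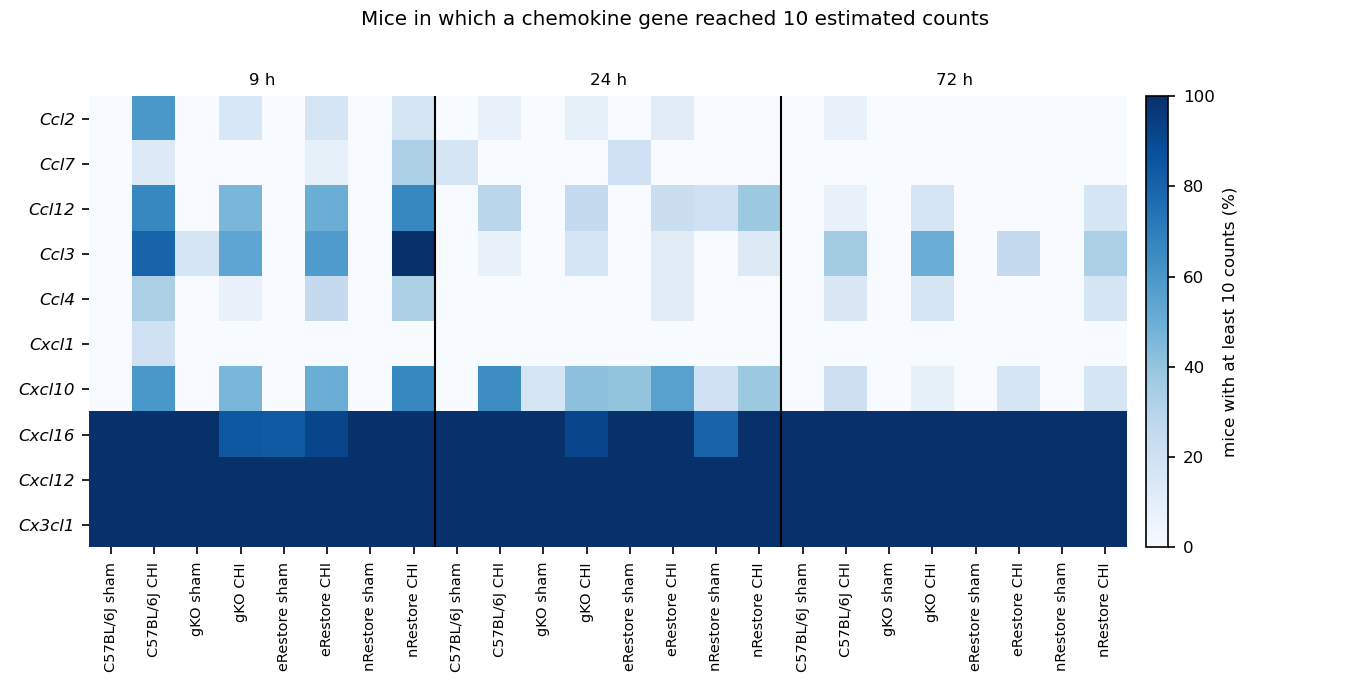
The percent of mice in each of 24 groups with at least 10 estimated counts, for each chemokine gene (rows) in sham and CHI mice by strain and time point (columns). Cxcl12 and Cx3cl1 reached 10 counts in all 200 mice and Cxcl16 in 65 of 67 sham mice, whereas Cxcl1 did so in 3 mice.

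Levels are given in TPM, which is scaled for transcript length and can be compared between genes. In sham mice Cx3cl1 was the most abundant with a median of 340 TPM, followed by Cxcl12 with 35.1 TPM, and Cx3cl1 lay above Cxcl12 in each of the 67 sham mice and in every CHI mouse. Cxcl12 lay above the other 8 genes in every sham mouse, whereas in 1 CHI mouse Ccl12 exceeded it. The other 8 genes had sham medians below 1 TPM: Cxcl16 0.867, Ccl12 0.826, Cxcl10 0.263, Ccl3 0.205, Ccl4 0.178, Ccl7 0.152, Ccl2 0.149 and Cxcl1 0 TPM. Neighbours among these could not be told apart, since Cxcl16 exceeded Ccl12 in 32 of 67 sham mice and Ccl3 exceeded Ccl4 in 30. Over all CHI mice the order of medians changed to Ccl12 (2.17 TPM), Ccl3 (1.11), Cxcl16 (1.05), Ccl4 (0.812), Cxcl10 (0.785), Ccl2 (0.449), Ccl7 (0.195) and Cxcl1 (0). Ccl12 exceeded Ccl3 in 90 of the CHI mice, and Ccl3 exceeded Cxcl16 in 75 of them.

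At 9 h in C57BL/6J mice, 4 chemokine genes rose after CHI (Ccl2, Ccl3, Ccl12 and Cxcl10) and 2 fell (Cxcl12 and Cx3cl1), while Cxcl16 did not pass the test and 3 were too low. In this comparison 14.1% of the 16967 genes tested passed, against 6 of the 7 chemokines judged. The 4 that rose reached 10 counts in no sham mouse and were tested only because CHI mice were high, so the count of those judged is not itself a result. In bulk tissue more cells of a type and more RNA per cell cannot be told apart.

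Ccl3 was at 0.817 to 6.81 TPM (median 2.95) in the 15 CHI mice and at 0 to 0.451 TPM (median 0.2) in the 6 sham mice. Every CHI mouse lay above every sham mouse, and 0.754% of all genes tested had ranges that did not overlap in this comparison. The log2 fold change was 3.89 (SE 0.55, adjusted p = 3.04e-05, edgeR), the largest of the 7 genes judged here. Ccl2 was at 0.449 to 6.69 TPM (median 1.77) after CHI and at 0 to 0.485 TPM (median 0.0666) in sham mice. The groups met at their edges, with 13 of 15 CHI mice above all sham mice, and the log2 fold change was 3.61 (SE 0.68, adjusted p = 0.000712). Ccl7, its neighbour on the chromosome and likewise a CCR2 ligand, was too low to judge, at 0 to 11 counts after CHI and 0 to 2 in sham mice.

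Ccl12 was at 0 to 9.7 TPM (median 3.57) after CHI and 0 to 2.75 TPM (median 0.576) in sham mice. CHI mice lay above all sham mice in 12 of 15 cases, and the log2 fold change was 2.34 (SE 0.63, adjusted p = 0.0128). Cxcl10 was at 0.165 to 3.75 TPM (median 0.895) after CHI and 0.087 to 0.79 TPM (median 0.241) in sham mice. The groups overlapped more than for the other 3 genes, with 9 of 15 CHI mice above all sham mice and a log2 fold change of 1.83 (SE 0.52, adjusted p = 0.0186). Without 1 of the sham mice (A178) the Cxcl10 value was 1.63 and no longer passed (adjusted p = 0.0573). Ccl4 was at 0 to 24 counts after CHI, with 5 of 15 mice at 10 or more where 6 were needed, and at 0 or 1 count in sham mice.

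**Figure D2:**
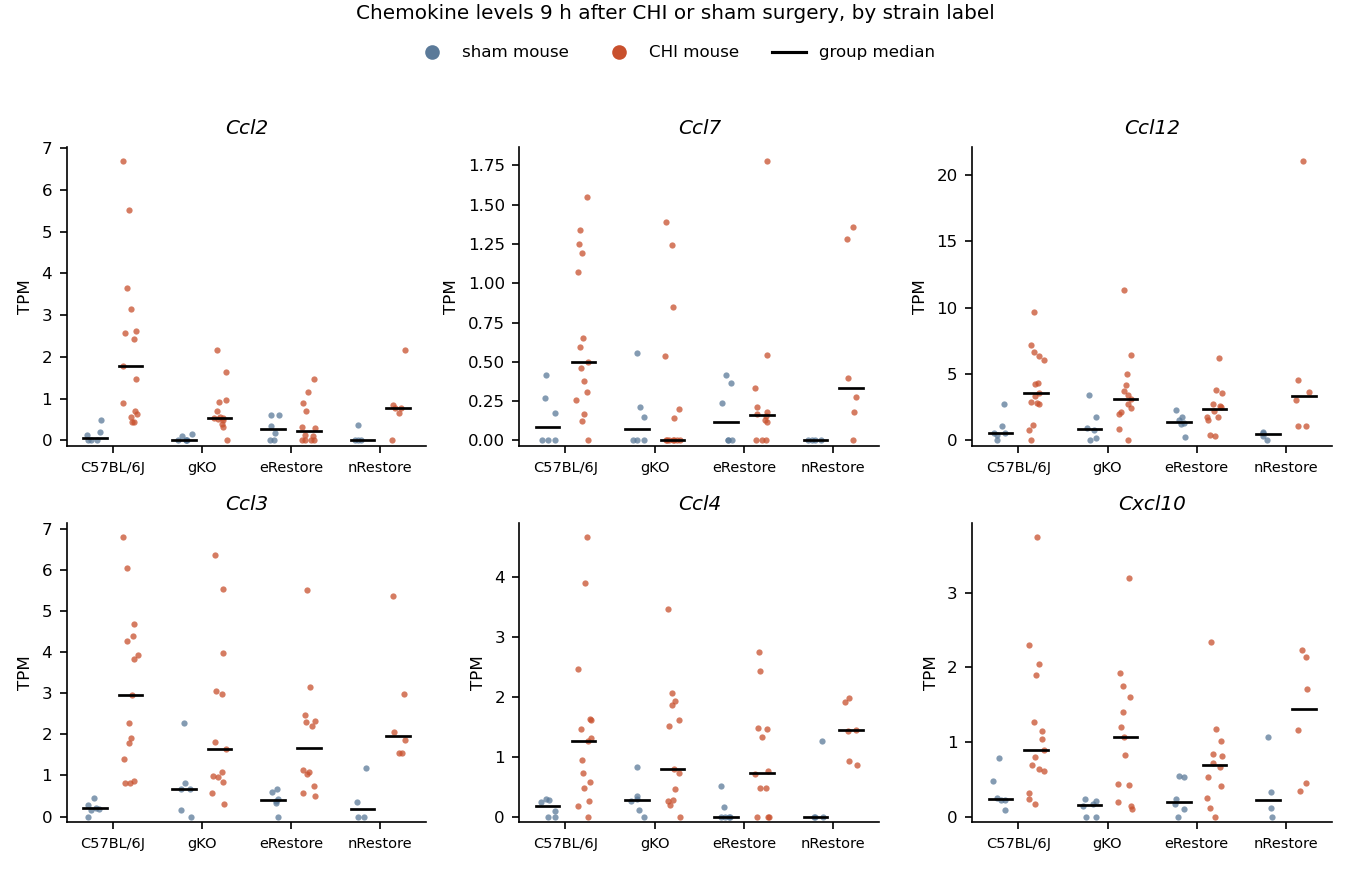
TPM of 6 chemokine genes in every mouse at 9 h (points), with group medians (bars), for sham and CHI mice of each strain label. In C57BL/6J mice all 15 CHI mice lie above all 6 sham mice for Ccl3, and medians are 1.77 against 0.0666 TPM for Ccl2.

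The 2 abundant genes moved the other way and by less. Cxcl12 was at 17.0 to 26.6 TPM (median 23.9) after CHI and at 24.2 to 40.3 TPM (median 29.5) in sham mice of the C57BL/6J strain at 9 h. It fell by 0.57 on the log2 scale (SE 0.09, adjusted p = 0.000131), with 8 of 15 CHI mice below all sham mice. Cx3cl1 was at 276 to 420 TPM (median 344) after CHI and 351 to 543 TPM (median 432) in sham mice. It fell by 0.34 (SE 0.07, adjusted p = 0.00142), with 9 of 15 CHI mice below all sham mice. Cxcl16 differed by 0.28 (SE 0.24, adjusted p = 0.506), with 0.404 to 1.42 TPM after CHI and 0.487 to 0.961 TPM in sham mice.

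At 24 and 72 h no chemokine passed the test in C57BL/6J mice, where 0.404% and 0% of all genes tested passed. At 24 h 4 genes could be judged, of which 3 had an unadjusted p under 0.05 in edgeR and none was called by DESeq2. The values at 24 h were 1.20 (SE 0.52, adjusted p = 0.483) for Cxcl10, -0.16 (0.07, 0.5259) for Cxcl12, -0.15 (0.06, 0.453) for Cx3cl1 and 0.37 (0.22, 0.652) for Cxcl16. Cxcl10 spanned 0.2 to 3.57 TPM after CHI and 0.219 to 0.667 TPM in sham mice, with 9 of 14 CHI mice above all sham mice. It reached 10 counts in no sham mouse and was tested only because CHI mice were high. At 72 h only Cxcl12, Cxcl16 and Cx3cl1 could be judged, and none of them had an unadjusted p under 0.05 or was called by DESeq2. Ccl3 was too low for the test at 72 h, although its median was 1.4 TPM after CHI and 0.176 TPM in sham mice, and 5 of 14 CHI mice lay above all sham mice.

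In mice labelled gKO no chemokine passed at 9 h, where 0.199% of all genes tested passed. Of the 6 judged, 5 had an unadjusted p under 0.05, and DESeq2 called Cxcl10. Cxcl10 and Ccl12 reached 10 counts in no sham mouse and were tested only because CHI mice were high. Cxcl10 was at 0.107 to 3.2 TPM (median 1.06) in 13 CHI mice and 0 to 0.237 TPM (median 0.153) in 6 sham mice, with 10 of 13 CHI mice above all sham mice. Its log2 fold change was 2.86 (SE 0.73, adjusted p = 0.11 in edgeR and 0.011 in DESeq2). The values of the others were 1.79 (SE 0.65, adjusted p = 0.292) for Ccl12, 1.56 (0.66, 0.384) for Ccl3, -0.44 (0.14, 0.222) for Cxcl12 and -0.28 (0.10, 0.286) for Cx3cl1. Ccl2 was too low to judge at 0 to 13 counts after CHI and 0 or 1 count in sham mice, and 12 of 13 CHI mice lay above all sham mice. At 24 and 72 h, where 0.0059% and 0% of genes passed, no chemokine passed, with 0 of 4 and 1 of 4 at an unadjusted p under 0.05 and none called by DESeq2. The 1 was Ccl3 at 72 h, with 0.598 to 2.97 TPM in 12 CHI mice and 0 to 0.443 TPM in 6 sham mice. These groups did not overlap (0.0239% of all genes tested), and the log2 fold change was 2.45 (SE 0.54), but no gene of this comparison passed adjustment. Ccl3 reached 10 counts in no sham mouse there and was tested only because CHI mice were high.

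In mice labelled eRestore only Ccl3 passed at 9 h, 1 of 6 judged against 7.34% of all genes tested. Ccl3, Ccl12 and Cxcl10 reached 10 counts in no sham mouse and were tested only because CHI mice were high. The count of those judged is therefore not itself a result. Ccl3 was at 0.501 to 5.51 TPM (median 1.67) in 12 CHI mice and 0 to 0.665 TPM (median 0.402) in 6 sham mice. With 10 of 12 CHI mice above all sham mice, it rose by 1.88 (SE 0.50, adjusted p = 0.0288, edgeR). DESeq2 called no chemokine in this comparison and gave Ccl3, Ccl12 and Cxcl10 no adjusted p, with a value of 1.90 for Ccl3. The call was lost when any of 3 sham mice (A097, A098 or A175) was left out, at 1.49 to 1.88 and adjusted p from 0.0536 to 0.0903. Cxcl10 differed by 1.56 (SE 0.66, adjusted p = 0.142) and Ccl12 by 0.94 (SE 0.52, adjusted p = 0.259). Ccl2 was too low to judge, at 0 to 17 counts after CHI and 0 to 3 in sham mice, and only 4 of 12 CHI mice lay above all sham mice. No chemokine passed at 24 or 72 h, where 0% and 0.00605% of genes passed. There, 0 of 4 and 1 of 3 judged had an unadjusted p under 0.05. DESeq2 called none, and at 24 h it gave 2 of the genes no adjusted p.

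In mice labelled nRestore no chemokine passed at 9 h in 6 CHI and 4 sham mice, where 0.608% of all genes tested passed. Of 6 judged, 4 had an unadjusted p under 0.05, and DESeq2 called none but gave 4 of them no adjusted p. Ccl12 was at 0, 0.37, 0.535 and 0.672 TPM in the sham mice and 1.07 to 21.1 TPM (median 3.36) after CHI. Ccl3 was at 0, 0, 0.365 and 1.18 TPM in the sham mice and 1.54 to 5.37 TPM (median 1.97) after CHI. Cxcl12 was at 27.8, 28.0, 28.2 and 30.5 TPM in the sham mice and 16.2 to 27.3 TPM (median 21.2) after CHI. The groups did not overlap for these 3 genes, as was so for 4.32% of all genes tested, and Ccl3 and Ccl12 were tested only because CHI mice were high. The log2 fold changes were 5.14 (SE 1.38, adjusted p = 0.145) for Ccl12, 3.10 (0.90, 0.148) for Ccl3 and -0.51 (0.30, 0.53) for Cxcl12. When genes with few counts were not filtered out, Ccl2, Ccl3, Ccl12, Cxcl10 and Cxcl12 passed in these mice. The share of all genes that passed without the filter is not given here, so this count is not itself a result. At 24 and 72 h, where 0% and 0.0121% of genes passed, only Cxcl12, Cxcl16 and Cx3cl1 could be judged and none passed, with 2 and 0 at an unadjusted p under 0.05 and none called by DESeq2.

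With the 4 strains weighed equally and all mice of a time point in 1 fit, 9 of the 10 genes could be judged at 9 h and 8 passed, where 21.4% of all genes did. Of the 6 that rose, 5 reached 10 counts in no sham mouse and Ccl3 in 1, so that they were tested through the CHI mice and the count of those judged is not itself a result. The CCR2 ligands rose, Ccl2 by 2.80 (SE 0.46, adjusted p = 4.01e-06), Ccl12 by 2.19 (0.37, 5.40e-06) and Ccl7 by 2.46 (0.62, 0.00204). Ccl7 passed the filter with only 5 of 46 CHI mice at 10 or more counts, and its median was 0.234 TPM after CHI and 0 in sham mice. The macrophage inflammatory protein genes Ccl3 (2.57, SE 0.35, 5.08e-08) and Ccl4 (2.51, 0.45, 2.01e-05) rose as well. Cxcl10 rose by 2.01 (0.36, 1.77e-05). Cxcl12 fell by 0.44 (SE 0.09, adjusted p = 0.000396) and Cx3cl1 fell by 0.19 (SE 0.06, adjusted p = 0.0257), whereas Cxcl16 differed by 0.21 (SE 0.15, adjusted p = 0.344). Cx3cl1 did not pass without a filter, and its fall was not seen in each strain. In eRestore mice 7 of 12 CHI mice lay above all sham mice for Cx3cl1 and 2 below. In C57BL/6J, gKO and nRestore mice 9 of 15, 6 of 13 and 3 of 6 CHI mice lay below all sham mice and 0 above.

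The mice of a time point came from several experiments, as the labels call them. At 9 h there were 3 experiments, of 22 CHI and 9 sham, 12 and 7, and 12 and 6 mice. Fitted alone in that order, 5, 1 and 3 of the genes passed, where 9.7%, 11.2% and 2.76% of all genes did. Ccl12 was at 1.70, 1.23 and 3.52, of which the second did not pass (adjusted p = 0.144). Cxcl12 was at -0.41, -0.36 and -0.48 and Cx3cl1 at -0.17, -0.23 and -0.25, each passing in 1 of the 3. Ccl3 was at 2.15 and 2.63 and Cxcl10 at 1.76 and 2.28 in the first and the last experiment and passed in both, and Ccl2 was at 2.40 in the first. These 3 genes were too low where no value is given, as Ccl4 and Ccl7 were in each experiment alone.

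At 24 h over the 4 strains, 6 genes could be judged and none passed, against 0.876% of all genes. In edgeR 2 of the 6 had an unadjusted p under 0.05, and DESeq2 called Ccl12 and gave 1 gene no adjusted p. Ccl12 was at 0.386 to 8.12 TPM (median 1.86) in 43 CHI mice and 0 to 2.03 TPM (median 0.8292) in 22 sham mice, with a log2 fold change of 1.22 (SE 0.33, adjusted p = 0.0558 in edgeR and 0.0231 in DESeq2). Ccl3 differed by 1.13 (SE 0.47, adjusted p = 0.265) and Cxcl10 by 0.78 (SE 0.40, adjusted p = 0.399). Ccl3 reached 10 counts in no sham mouse and Ccl12 in 1, so both were tested through the CHI mice. At 24 h some CHI mice labelled gKO, eRestore or nRestore came from an experiment without sham mice of their strain. They were older than every sham mouse of these strains, which reached 5.3 months. In these strains CHI cannot be fully told apart from experiment and age at 24 h. Fits of single experiments at 24 h are not reported here.

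At 72 h over the 4 strains, Ccl3, Ccl4 and Cxcl16 rose, 3 of the 6 judged, where 0.679% of all genes passed. Ccl3 and Ccl4 were tested through the CHI mice. Ccl3 was at 0 to 4.39 TPM (median 1.33) in 44 CHI mice and 0 to 1.72 TPM (median 0.176) in 23 sham mice, a log2 fold change of 2.56 (SE 0.38, adjusted p = 9.54e-06). Ccl4 was at 0 to 3.35 TPM (median 0.962) after CHI and 0 to 1.14 TPM (median 0.295) in sham mice, a change of 1.84 (SE 0.36, adjusted p = 0.0012). The ranges overlapped for both genes, which stood at 10 or more counts in 16 and 5 CHI mice and in no sham mouse. Cxcl16 was at 0.514 to 2.49 TPM (median 1.31) after CHI and 0.487 to 2.06 TPM (median 0.786) in sham mice, a change of 0.50 (SE 0.12, adjusted p = 0.0242). Within the 3 experiments that could be fitted alone Cxcl16 was at 0.21, 0.99 and 0.52 and passed in none, where 0.223%, 0.0119% and 0.0241% of all genes passed, and Ccl3 and Ccl4 were too low in each. Ccl2, Ccl7, Ccl12 and Cxcl1 were too low at 72 h, with Ccl2 at a median of 0.212 TPM after CHI and 0.209 TPM in sham mice.

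**Figure D3:**
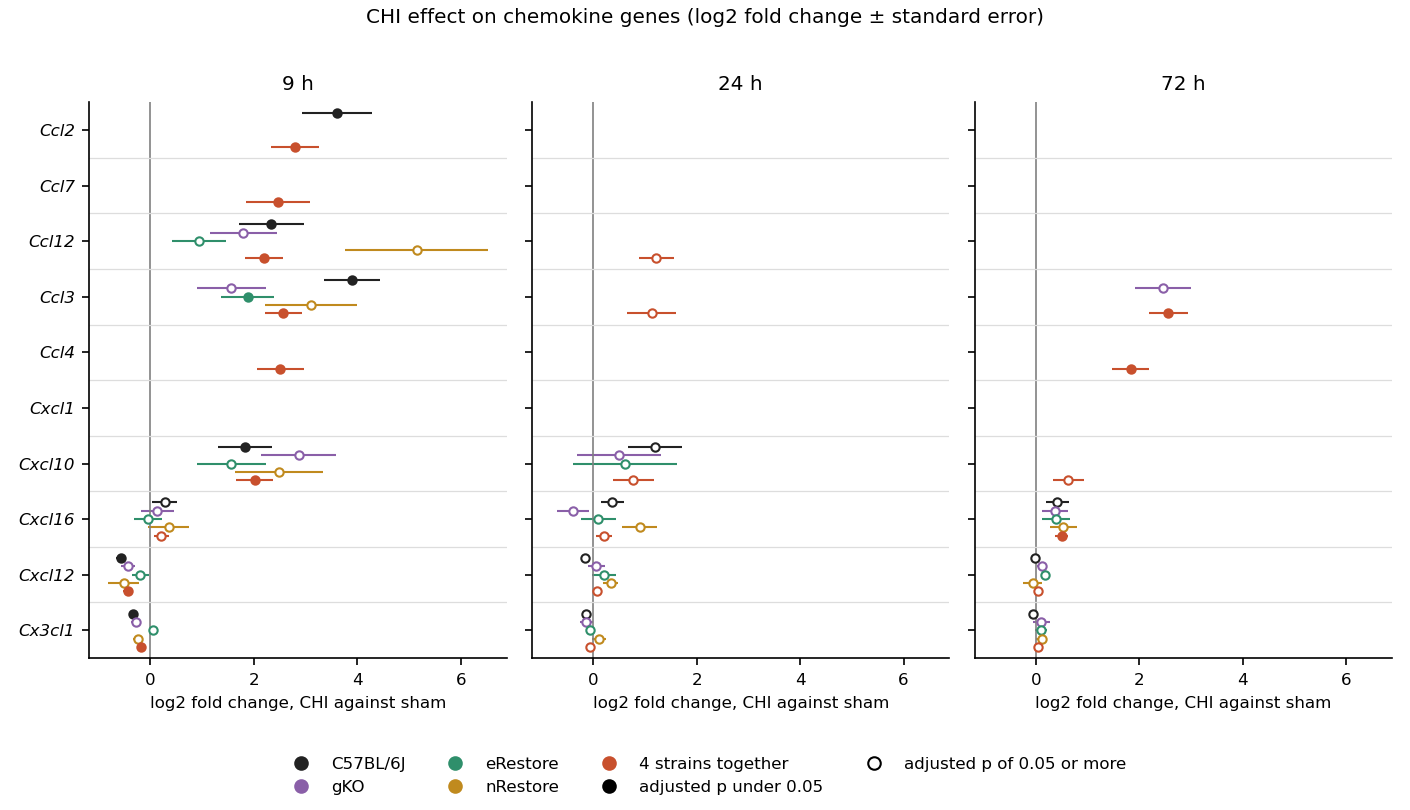
Log2 fold change of CHI against sham with its standard error for each chemokine gene at 9, 24 and 72 h, in each strain label and in the 4 strains together, where the gene could be judged. Filled points passed an adjusted p of 0.05. At 9 h the inflammatory genes lie to the right and Cxcl12 to the left of 0, and at 72 h the filled points are Ccl3, Ccl4 and Cxcl16.

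Whether the CHI effect changed with time was tested in 1 fit of all 200 mice. The experiments at 9 h held no mice of the later time points, so time and experiment cannot be told apart in the differences from 9 h, although each effect is measured against sham mice of its own time. Between 9 and 24 h, the Ccl7 effect was larger at 9 h by 2.43 (SE 0.74, adjusted p = 0.0182). The Cxcl12 effect was lower at 9 h by -0.47 (SE 0.12, adjusted p = 0.00269), so that 2 of 9 judged passed against 9.63% of all genes. Ccl2 came next, at 1.85 (SE 0.66, adjusted p = 0.0563). Between 9 and 72 h the effect was larger at 9 h for Ccl2 by 2.49 (SE 0.73, adjusted p = 0.0125), Ccl7 by 2.36 (0.81, 0.0382) and Ccl12 by 1.44 (0.47, 0.0285), and lower for Cxcl12 by -0.45 (0.11, 0.00262), 4 of 9 against 11.8% of all genes. These comparisons share the 9 h mice. Over the 4 strains Ccl2 and Ccl7 were too low to judge at 24 and 72 h, and Ccl12 at 72 h, so their differences rest on few counts. Ccl7 reached 10 counts in 5 CHI mice at 9 h, in 0 CHI mice at 24 or 72 h and in 2 sham mice at 24 h. Its median after CHI was 0.234 TPM at 9 h and 0.456 TPM at 24 h, against 0 and 0.181 TPM in sham mice. Between 9 and 72 h DESeq2 called Ccl12, Cxcl12, Cxcl10 and Cx3cl1 and gave Ccl2, Ccl4 and Ccl7 no adjusted p. Between 9 and 24 h it called Cxcl12 and gave the same 3 genes none. For Ccl3 the CHI effects at 9 and 72 h differed by -0.01 on the log2 scale (adjusted p = 0.974), and for Ccl4 by 0.69 (SE 0.63, adjusted p = 0.555). The 24 h effect of Ccl3 was below that at 72 h by -1.46 (SE 0.61, adjusted p = 0.968). No chemokine passed between 24 and 72 h, against 0.0249% of all genes, with 1 of 9 at an unadjusted p under 0.05 and none called by DESeq2.

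**Figure D4:**
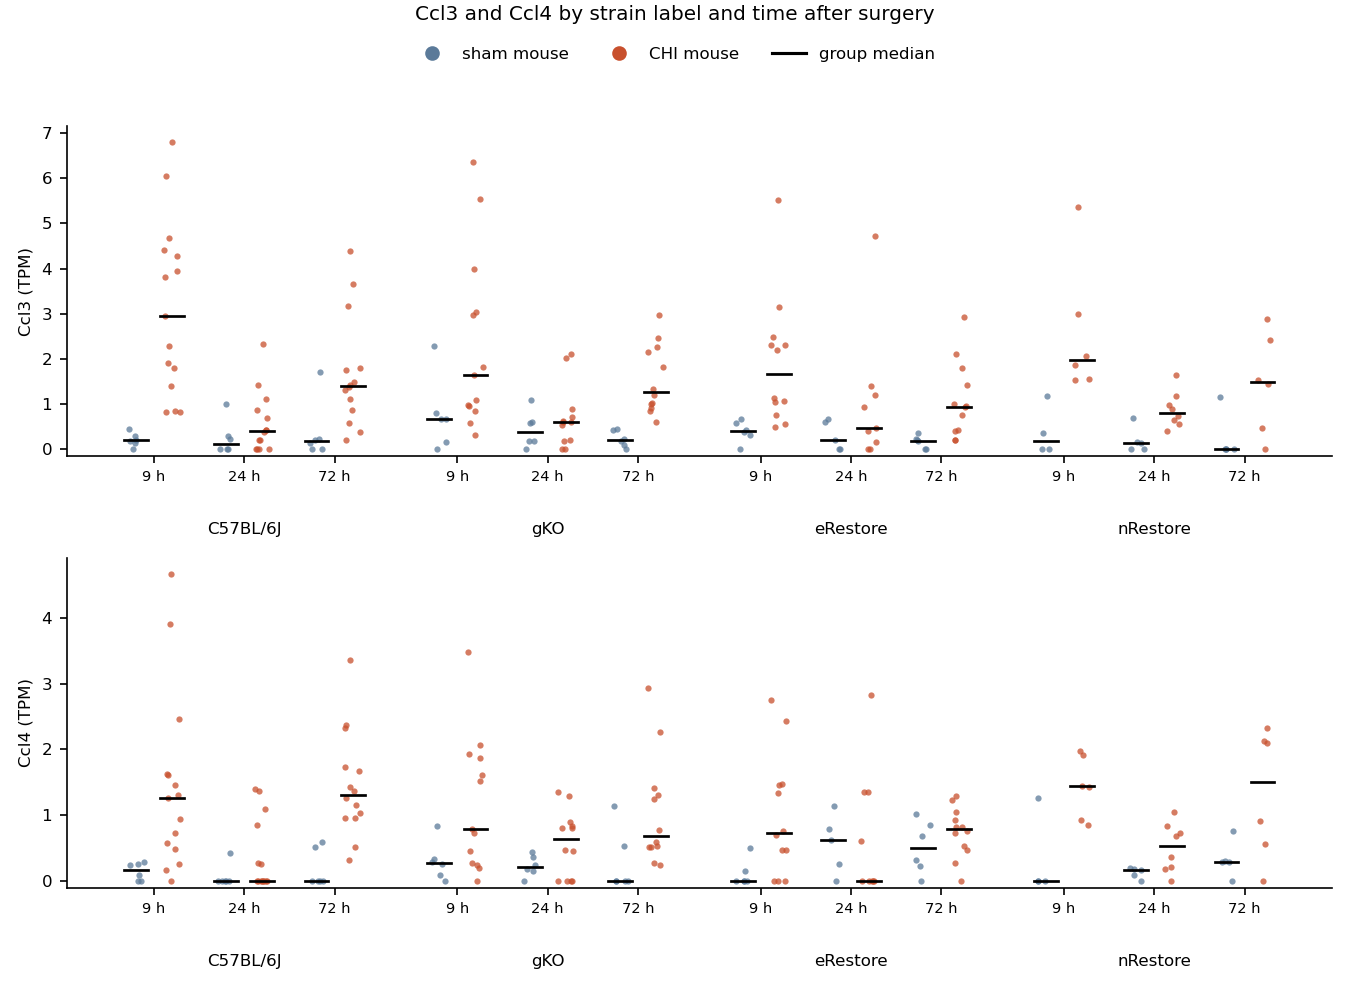
TPM of Ccl3 and Ccl4 in every mouse (points) with group medians (bars), by strain label and time point. Over the 4 strains the Ccl3 medians after CHI were 1.99 TPM at 9 h, 0.613 TPM at 24 h and 1.33 TPM at 72 h, against 0.346, 0.183 and 0.176 TPM in sham mice.

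No chemokine that could be judged (9 at 9 h, 6 at 24 and at 72 h) passed the test for a CHI effect different from that in C57BL/6J mice. A difference that did not pass does not show that the strains responded alike. All 9 such tests share the C57BL/6J mice. At 9 h the nRestore and C57BL/6J mice came from different experiments, so strain and experiment cannot be told apart between them. Of all genes, 0, 0.0107 and 0.00534% passed at 9 h for gKO, eRestore and nRestore, 0.00541, 0.0108 and 0% at 24 h, and 0, 0 and 0.00543% at 72 h. The members with an unadjusted p under 0.05 numbered 1, 2 and 0 of 9 at 9 h, 0, 0 and 1 of 6 at 24 h and 0, 2 and 0 of 6 at 72 h, and DESeq2 called none. The largest differences at 9 h among these were -2.84 (SE 1.14, adjusted p = 0.438) for Ccl2 in eRestore and -2.28 (SE 0.91, adjusted p = 0.644) for Ccl3 in gKO mice, in both of which the C57BL/6J effect was the larger. For Ccl3 the standard errors of these differences were 0.91 to 1.40, so that the strains are not shown to respond alike. For the abundant genes the errors were smaller, at 0.15 to 0.29 for Cxcl12 and 0.14 to 0.19 for Cx3cl1. The Cx3cl1 effect was higher in eRestore mice at 9 h by 0.36 (SE 0.17, adjusted p = 0.521).

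Male and female mice did not differ in the CHI effect on any chemokine past the threshold, as was so for all genes (0% at 9, 24 and 72 h). Of the members, 1 of 9, 1 of 6 and 0 of 6 had an unadjusted p under 0.05 at these time points, and DESeq2 called none. They were Ccl3 at 9 h, at -1.57 (SE 0.67, adjusted p = 1) for males minus females, and Cxcl16 at 24 h, at -0.71 (SE 0.28, adjusted p = 0.945).

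Among sham mice, Cxcl12 was the only chemokine that passed in edgeR between strains, at 72 h and in 2 of the 3 strains compared with C57BL/6J. At 72 h sham mice labelled eRestore spanned 36.9 to 61.5 TPM (median 51.6), those labelled gKO 29.9 to 54.8 TPM (median 49.4) and C57BL/6J sham mice 29.1 to 37.6 TPM (median 30.7). The differences from C57BL/6J were 0.83 (SE 0.13, adjusted p = 2.83e-05) in eRestore and 0.56 (SE 0.13, adjusted p = 0.0204) in gKO mice. In nRestore sham mice at 72 h Cxcl12 was at 27.2, 29.5, 31.4, 35.1 and 36.9 TPM, within the C57BL/6J range but for 1 mouse. At 9 h the values were 0.50 (SE 0.21, adjusted p = 0.212) in eRestore and 0.44 (0.21, 0.62) in gKO mice, and at 24 h 0.62 (0.17, 0.0537) and 0.39 (0.16, 0.155). Cx3cl1 differed in nRestore sham mice by -0.49 (SE 0.17, adjusted p = 0.201) at 9 h and -0.37 (0.12, 0.0519) at 24 h, without passing in edgeR. The 9 h value lies between mice of different experiments, so that strain and experiment cannot be told apart. These comparisons share the C57BL/6J sham mice. Of all genes, 0.63, 2.29 and 0.694% passed at 9 h for gKO, eRestore and nRestore against C57BL/6J, 3.99, 1.01 and 4.44% at 24 h and 0.293, 0.456 and 0.598% at 72 h.

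**Figure D5:**
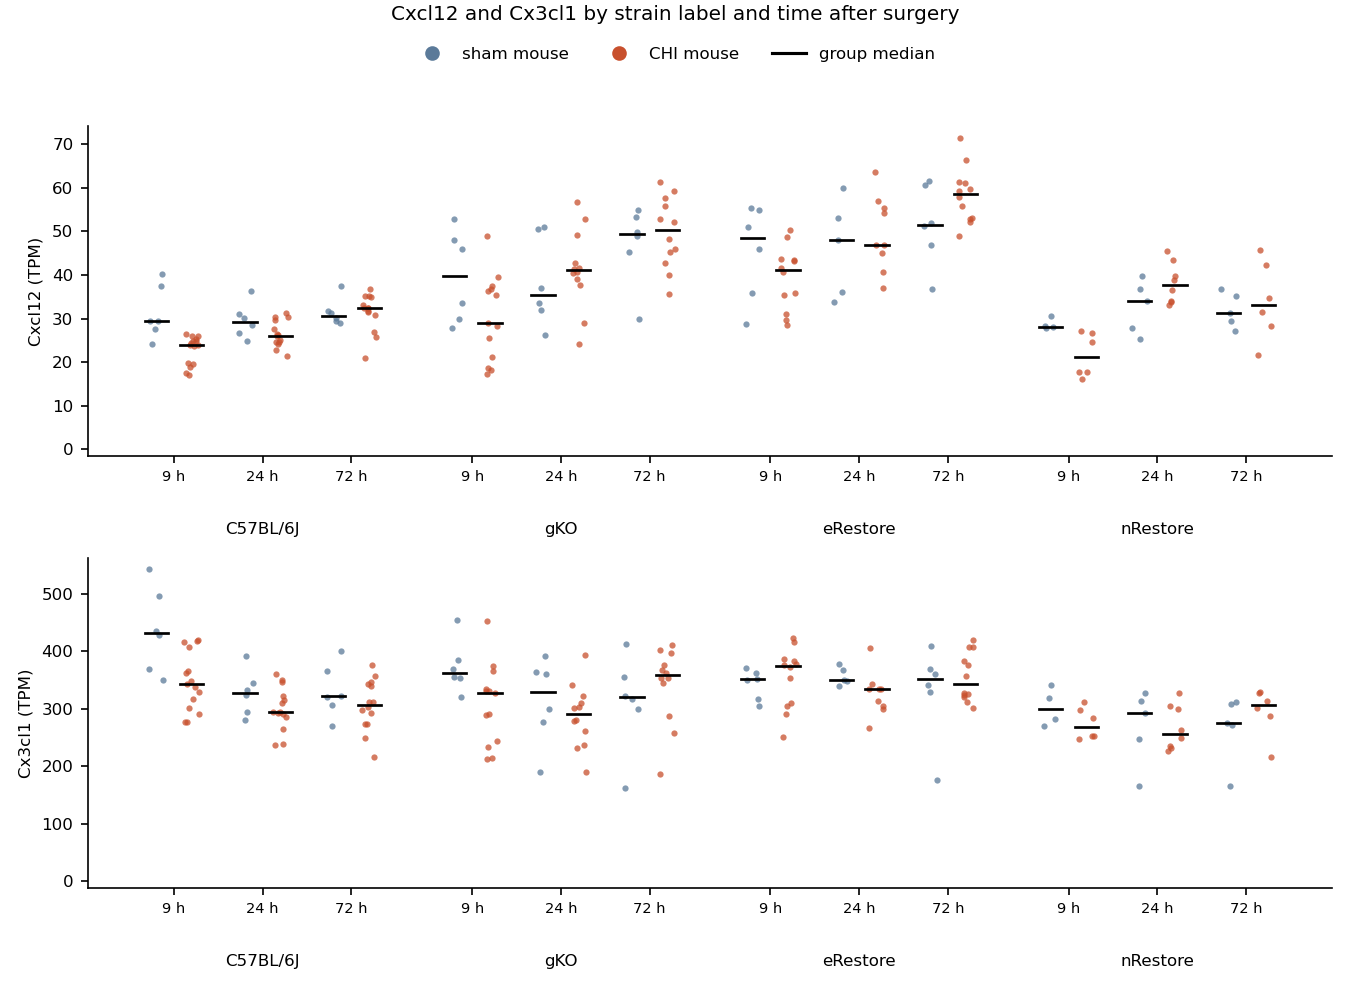
TPM of Cxcl12 and Cx3cl1 in every mouse (points) with group medians (bars), by strain label and time point. At 9 h in C57BL/6J mice the CHI medians are 23.9 and 344 TPM against 29.5 and 432 TPM in sham mice, and Cxcl12 sham medians at 72 h are 51.6 TPM in eRestore and 30.7 TPM in C57BL/6J mice.

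Among 28 other chemokine genes, 8 could be tested at 9 h in C57BL/6J mice and 3 rose, where 14.1% of all genes passed. These were Ccl9 by 2.33 (SE 0.53, adjusted p = 0.00586), Ccl17 by 2.00 (0.55, 0.0141) and Ccl28 by 0.62 (0.16, 0.00956). The median over the 8 tested was 0.40, beside -0.01 over all genes. Over the 4 strains at 9 h, 5 of 12 tested rose and none fell, where 21.4% of all genes passed. They were Ccl17, Ccl9, Ccl24, Ccl22 and Pf4, at 0.73 to 1.42. At 72 h over the 4 strains 2 of 10 rose, where 0.679% of all genes passed, Ccl6 by 1.28 (SE 0.13, adjusted p = 6.56e-10) and Ccl9 by 0.93 (0.17, 0.000293). Ccl6 also rose in eRestore mice at 72 h, by 1.58 (SE 0.24, adjusted p = 0.0321). None of these genes passed at 24 h over the 4 strains, where 9 were tested and 0.876% of all genes passed. How far these genes were tested only because CHI mice were high was not examined. The Ccl6 and Ccl9 genes encode CCR1 ligands of myeloid cells.

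Of 23 receptor genes 12 could be tested at 9 h over the 4 strains and 2 rose, a share below that of all genes (21.4%). They were the scavenging receptor Ackr2 by 0.66 (SE 0.09, adjusted p = 1.78e-07) and the atypical receptor Ackr1, which venules and erythroid cells carry, by 0.21 (0.05, 0.000337). The median over those tested was -0.01, beside 0.00 over all genes. In single strains at 9 h Ackr2 rose in C57BL/6J (1.08, SE 0.13, adjusted p = 3.16e-06) and eRestore mice (0.67, 0.19, 0.0323), and Ackr1 rose in gKO mice (0.37, 0.07, 0.0224). At 72 h over the 4 strains 1 of 12 rose, where 0.679% of all genes passed. It was Cx3cr1, the receptor of Cx3cl1, by 0.20 (SE 0.04, adjusted p = 0.00424). Of 5 processing enzymes, 2 fell at 9 h over the 4 strains, against 21.4% of all genes that passed. They were Adam17, a sheddase of Cx3cl1 and Cxcl16, by 0.20 (SE 0.05, adjusted p = 0.000598) and Dpp4, which trims several chemokines, by 0.35 (SE 0.09, adjusted p = 0.00309). Adam10 rose in eRestore mice at 9 h by 0.17 (SE 0.05, adjusted p = 0.0477).

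Markers of cell types that make or follow chemokines are given beside these results, and their part in them was not tested. At 9 h over the 4 strains 5 of 6 microglia markers fell, P2ry12 most with a change of -0.58, where 21.4% of all genes passed. Their sum had a median of 242 TPM (146.7 to 377) after CHI and 276 TPM (209 to 423) in sham mice. At 72 h 3 of the 6 rose, Csf1r and Tmem119 among them, where 0.679% of all genes passed. The median sum was then 330 TPM (243 to 394) against 278 TPM (233 to 354). Monocyte and macrophage markers summed to 6.09 TPM (3.80 to 9.24) after CHI and 6.07 TPM (3.72 to 13.6) in sham mice at 9 h, where 5 of 6 had medians under 1 TPM. Of the 2 tested Ms4a7 fell over the 4 strains, and in C57BL/6J mice Vcan rose by 0.30. The 6 neutrophil markers all had medians under 1 TPM and were too low to test, with sums of 0 to 70.2 TPM after CHI and 0 to 2.35 TPM in sham mice at 9 h. Of the T and NK cell markers only 1 of 6 could be tested, and it did not pass.

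Astrocyte markers Gfap (0.77) and Aldh1l1 (0.32) rose at 9 h over the 4 strains, where 21.4% of all genes passed. The 6 astrocyte markers had a sum of 758 TPM (561 to 981) after CHI and 714 TPM (564 to 841) in sham mice. Of 6 endothelial markers 3 rose and Flt1 fell, with a sum of 181.6 TPM (120 to 246) against 158.2 TPM (118.5 to 221). Neuron markers, of which Rbfox3 rose by 0.16, summed to 6513 TPM (4680 to 8092) against 6117 TPM (5331 to 7411). Markers of the choroid plexus (3 of 6) and of meningeal fibroblasts (4 of 6) fell at 9 h over the 4 strains, beside the 21.4% of all genes that passed. Their median sums were 27.6 against 50.5 TPM and 26.3 against 39.4 TPM. In C57BL/6J mice at 9 h no marker of these 2 lists passed. Whether any of these markers bears on the chemokine changes was not tested. Erythrocyte markers had a median sum of 167.7 TPM after CHI and 24.6 TPM in sham mice at 9 h, with ranges of 3.91 to 1385 and 3.16 to 764 TPM, and none of the 5 passed.

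The genes most like each chemokine across all 200 mice were found after the means of group, sex and experiment had been removed, so that the values describe variation among like mice. The correlations are across mice that share experiments and differ in depth, and are weak where counts are few. Cx3cl1 went most closely with Fscn1 (Pearson r = 0.876), Ergic1 (0.872) and Ap2a1 (0.851), and Cxcl12 with Kdr (0.543), Tek (0.542) and Zfp239 (0.541). Cxcl10 went with Ifit3 (0.4929), Gbp2 (0.419) and Mmp3 (0.416), and Ccl12 with Gbp2 (0.462), Ifit3 (0.426) and Pycard (0.399). For Ccl3 the leading genes were Ccl4 (0.442), Ccl9 (0.385) and Serpina3n (0.357), and for Ccl4 they were Ccl3, Tgm1 (0.371) and Ccl6 (0.345). For Ccl2 they were Msr1 (0.471), Tgm1 (0.426) and Gbp2 (0.406), for Cxcl16 Gbp2 (0.417), Ifitm3 (0.413) and Bmp7 (0.399), and for Ccl7 Gjb2 (0.392), Serping1 (0.392) and Fgfbp1 (0.383). Among the 10 genes themselves the highest value was that of Ccl3 with Ccl4.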

How the data were processed

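RNA was sequenced from brain tissue of 200 mice as poly(A) libraries. The authors aligned reads with STAR and quantified them with Salmon in the nf-core/rnaseq pipeline on GRCm39, and FastQC and DESeq2 are also listed in the submitters' processing notes, without versions. The authors deposited 2 tables, of estimated counts per gene and of TPM, which is scaled for transcript length and library size. No deposited column of per-sample values was left unused (0 columns). No molecular identifiers are named in the sources used here, so counts are of reads and not of molecules.

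Estimated counts were rounded to whole numbers and tested with the quasi-likelihood F test of edgeR 4.0.16 (R 4.3.3, limma 3.58.1) with TMM factors, robust dispersion, and sex and age as covariates. Genes were kept where the number of mice with 10 counts or more was no smaller than the smallest group. Adjusted p is Benjamini-Hochberg over all genes tested, with a threshold of 0.05, and standard errors are the log2 fold change divided by the root of F. A direction was given only where the change exceeded its standard error. Within each strain and time point CHI was compared with sham (12 comparisons), over the 4 strains (3), and between strains (9), time points (3), sexes (3) and sham groups (9). TPM served for levels only. Likeness was computed on log2 CPM with a prior count of 2, over 20111 genes.

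Alternatives were DESeq2 1.42.0 with its own size factors or with gene-length offsets, RLE factors, no filter, 10 counts in every mouse, no covariates, experiment in place of age, each sham mouse left out, and each experiment alone. On counts simulated for the C57BL/6J comparison at 9 h (16745 genes), edgeR recovered 95 of 100 genes changed by a log2 fold of 1 and 100 of 100 changed by 2, and called 13 unchanged genes. The changed genes were drawn only from genes with higher counts. Recovery at counts as low as those of most chemokines here was not tested. All 10 genes are described, and the 3 genes most like each are named. Results for some genes of the other lists are not reported here. The members and the gene lists were chosen with earlier results of these data known. Python 3.11.15, pandas 2.3.3, numpy 2.4.6 and matplotlib 3.10.9 were used for tables and plots.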

Additional observations from a re-analysis of the deposited data

Results flagged for a closer look

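In 13 of 69 pairings of a chemokine with a group of 4 to 10 mice, 1 mouse stood apart from the others in TPM by Dixon's criterion on log2(TPM + 0.1), where chance gives about 5%. Some groups appear under several genes, so the pairings are not independent. Cx3cl1 was lowest in 1 mouse each of the eRestore sham (175.6 TPM, the others 330 to 410), gKO sham (162.5, the others 299 to 412), nRestore CHI (217, the others 287 to 330) and nRestore sham (166.6, the others 272 to 312) groups at 72 h. The gKO sham mouse was also lowest for Cxcl12, at 29.9 TPM against 45.2 to 54.8 TPM. Cxcl12 had a highest mouse at 37.6 TPM in C57BL/6J sham mice at 72 h and at 30.5 TPM in nRestore sham mice at 9 h. Cxcl16 had a highest mouse at 1.93 TPM in C57BL/6J sham mice at 72 h and at 1.55 TPM in nRestore sham mice at 9 h, and a lowest mouse at 0.958 TPM in nRestore CHI mice at 72 h. In eRestore mice the lowest sham mouse at 9 h stood apart for Ccl3 (0 TPM) and for Ccl12 (0.268 TPM), as did the lowest CHI mouse at 24 h for Cxcl10 (0 TPM).

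The CHI effect differed between time points by edgeR's test of the difference for Ccl7 (2.43) and Cxcl12 (-0.47) between 9 and 24 h. Between 9 and 72 h it differed for Ccl2 (2.49), Ccl7 (2.36), Ccl12 (1.44) and Cxcl12 (-0.45), each a log2 difference that is positive where the 9 h effect was larger.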

How the results depend on the processing

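Of 869 values of single chemokines under other settings, 834 kept their direction and their side of the threshold, 15 no longer passed, 17 newly passed and 3 reversed. The reversed values all belong to Cxcl16, which passed in none of these comparisons: -0.0495 in C57BL/6J mice at 24 h with DESeq2 gene-length offsets, 0.0116 in gKO mice at 24 h without covariates, and -0.15 over the 4 strains at 9 h in the experiment of 12 CHI and 7 sham mice alone. Requiring 10 counts in every mouse, which leaves fewer genes to test, gave 2 chemokines in C57BL/6J mice and 2 over the 4 strains at 9 h, 0 in eRestore mice at 9 h and 1 over the 4 strains at 72 h, in place of 6, 8, 1 and 3. Without a filter 5 passed in nRestore mice at 9 h in place of 0, and the cause was not tested. DESeq2 called 1 in gKO mice at 9 h with either set of offsets, 1 over the 4 strains at 24 h, and 1 each among sham mice for eRestore at 9 h, eRestore at 24 h and nRestore at 24 h, in place of 0, and the cause was not tested. Without covariates 1 passed over the 4 strains at 24 h. With experiment in place of age, 1 passed between gKO and C57BL/6J sham mice and 2 between eRestore and C57BL/6J sham mice at 9 h. Single experiments, which hold fewer mice, gave 5, 1 and 3 at 9 h and 0, 0 and 0 at 72 h. Leaving out 1 sham mouse gave 0 to 1 in eRestore mice at 9 h. For C57BL/6J mice at 9 h it gave 6 to 7, since Ccl4 then passed the filter. Cxcl16 over the 4 strains at 72 h had an adjusted p of 0.053 with gene-length offsets, and Cx3cl1 at 9 h one of 0.05165 without a filter. DESeq2 gave no adjusted p for Ccl3 in eRestore mice at 9 h, for Ccl7 in both time differences from 9 h, or for Ccl2 between 9 and 72 h. Experiment in place of age could not be fitted for nRestore mice at 9 h and the time differences, and experiments with 1 sham mouse were not fitted alone. Except for single experiments, the share of all genes that passed under each other setting is not given here. The counts of chemokines under those settings are therefore not themselves results. Low counts limit Ccl2, Ccl4, Ccl7 and Cxcl1 most.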
